A study of Homo sapiens with 6 samples.

Results

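Interferon-stimulated genes were described in SW480 and M5 cells, as a list of 43 genes chosen by symbol. Of these, 42 had at least 1 probe set annotated to that gene alone, through 72 probe sets, and 39 passed the filter on low signals, out of 14243 genes tested. IFI44L, MX2 and GBP1 did not pass the filter and STAT2 was not analysed here. SW480 is an established human colorectal cancer cell line. M5 is a population selected in vivo out of SW480 for stronger metastasis to the liver, and how many cells founded it is not given in the sources used here. Both were cultured in RPMI medium with fetal bovine serum, and no interferon or other treatment is named for either. Each was hybridised to 3 Affymetrix U133 Plus 2.0 arrays, labelled as biological replicates. Nothing states that these came from separate cultures, so the p-values measure the spread between these arrays, which may be technical.

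Interferons are secreted proteins that cells release when they sense viral nucleic acid. Type I and type III interferons act through receptors and Janus kinases on a transcription factor complex that contains STAT2 and IRF9, and this complex binds the interferon-stimulated response element in the promoters of its target genes. The products of those genes bind or degrade viral RNA, hold virus at membranes, or raise the cell's own sensing of RNA, and many carcinoma cell lines transcribe some of them without added interferon.

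The response element has a core of a repeated GAAA with a spacer of a pair of bases, so promoters were searched for GAAANNGAAA on either strand (TTTCNNTTTC on the other strand), in windows of 250 bases before to 50 bases after each start in RefSeq (GRCh38.p14). Matches may overlap. At least 1 match lay in a window of 24 of the 34 listed genes that had an entry (70.6%), against 4.38% of 27305 genes and 3.57% of all 35116 windows. The 10 genes without a match were IFI35, OAS1, STAT2, IRF1, IRF9, RIGI, HERC6, XAF1, CMPK2 and SAMD9L. A further 9 genes, IFIT2, IFITM2, MX2, OAS2, OASL, IRF7, USP18, TRIM22 and GBP2, had no entry. The stretches below come only from windows with a match. They are shown because the expression results turn on their genes or, for ISG15, because it was the brightest of the list. Those results turn equally on CMPK2 and OAS1, which had no match, and on IFIT2, which had no entry. IFIT3 had matches in 2 windows, of which 1 is shown. Each is written 5′ to 3′ on the gene's strand, and capitals mark the fixed letters of the motif.
IFI27, chr14:94110613-94110665, plus strand: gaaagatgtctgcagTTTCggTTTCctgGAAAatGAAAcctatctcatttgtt
BST2, chr19:17405730-17405775, minus strand: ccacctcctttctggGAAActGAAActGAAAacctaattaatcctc
SAMD9, chr7:93118091-93118130, minus strand: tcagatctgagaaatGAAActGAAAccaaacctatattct
IFIT3, chr10:89327826-89327899, plus strand: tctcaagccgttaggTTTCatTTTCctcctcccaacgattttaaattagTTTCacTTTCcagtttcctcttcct
IFI44, chr1:78649756-78649795, plus strand: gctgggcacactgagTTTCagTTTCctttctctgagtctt
ISG15, chr1:1013369-1013414, plus strand: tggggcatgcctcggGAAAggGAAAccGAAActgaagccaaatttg
BST2 and ISG15 each held 2 overlapping matches that share a GAAA, IFI27 held 1 match on each strand, and SAMD9 and IFI44 held 1 match. A match is a run of letters in a window and not a measured binding site.

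**Figure D1:**
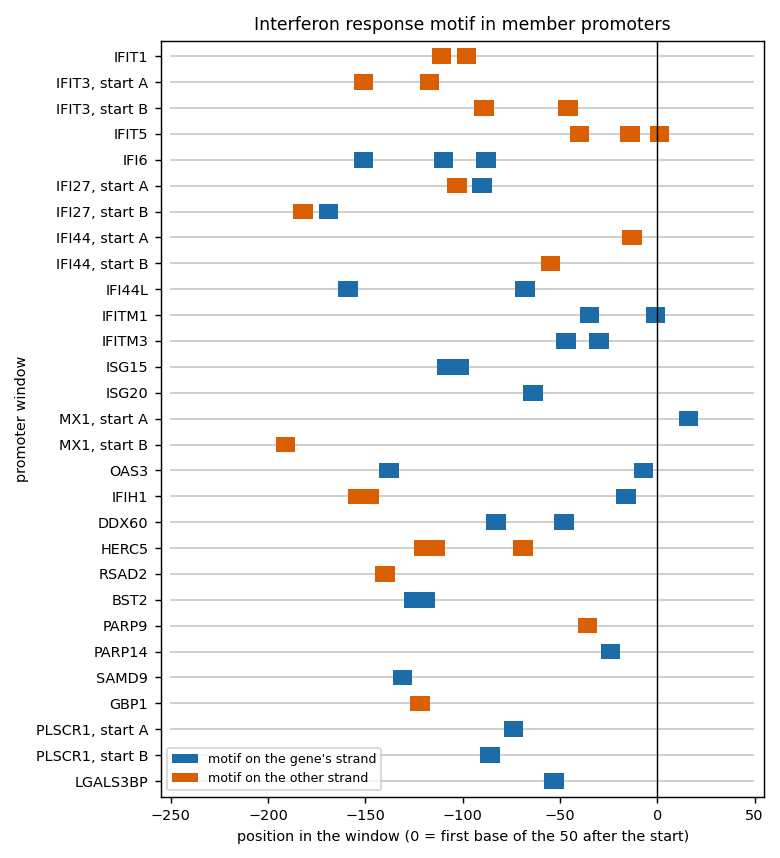
Positions of GAAANNGAAA in the promoter windows of the listed genes that hold it, in bases from the transcription start (horizontal axis), with 1 row for each of 29 windows. Colour gives the strand of the match, and most matches lie before the start.

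The arrays differed among themselves in ways the lines do not account for. The 2% trimmed mean signals ran from 21.1 on SW480 replicate 1 and 27.2 on M5 replicate 1 to 87.1 on SW480 replicate 3, a ratio of 4.12, and the first 2 are called the dimmer pair here. The 18S ribosomal control signal was low on SW480 replicate 3 and M5 replicates 2 and 3, 96.3 to 234, and high on the other 3 arrays, 2824 to 4163. Over the 45 spike-in control probe sets, SW480 replicate 3 lay close to M5 replicates 2 and 3 (median absolute log2 deviation of 0.181 and 0.162) and far from the other 2 arrays of its own line (1.05 and 0.967). M5 replicates 2 and 3 differed by 0.0729 over the 3276 brightest probe sets, against 0.192 to 0.328 for the other pairs of arrays. Over spike-in controls they differed by 0.0723, against 0.162 to 1.34 for the other pairs. Over 224 gene probe sets of like brightness they differed by 0.0889, against 0.222 to 0.391. M5 replicates 2 and 3 were therefore counted as 1 sample in means and SDs, so that n = 2 for M5. Summed signals of the colorectal epithelial markers, EPCAM, KRT8, KRT18 and KRT19 among them, were 9132 to 12837 in SW480 and 11341 to 12197 in M5. CDX1, CDX2 and GPA33 did not pass the filter. KRT20 and VIL1 passed it at low signals, 23.7 to 57.6 and 6.17 to 17.0 over the 6 arrays. The leukocyte markers summed to 54 to 135 in SW480 and 98.9 to 223 in M5. LYZ made up most of this sum on M5 replicates 2 and 3, at 147 of 218 and 161 of 223. PTPRC, CD3D, CD2, CD14 and TYROBP did not pass the filter, while CD3E, MS4A1, ITGAM, CSF1R and LYZ did. The fibroblast markers summed to 120 to 163 in SW480 and 98 to 163 in M5. Those of endothelial cells summed to 12.9 to 31.3 and 15 to 28.6. In such bulk RNA, a change in the number of cells that express a gene and a change in RNA per cell cannot be told apart.

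All signals below are quantile normalised intensities, and differences are on the scale of log2(signal + 1.7). A probe set's signal does not rank one gene against another. The listed genes did not follow the line labels. They were high on SW480 replicate 1, where 34 of 39 lay above their own mean of 6 arrays and 20 had their highest value, against 21.6% of all genes with their highest value there. They were low on SW480 replicate 3, with 8 above their mean and 14 at their lowest (12.4% of all genes), and on M5 replicate 1, with 8 above their mean and 13 at their lowest (17.9% of all genes). The median deviation of the 39 genes was 0.37 on SW480 replicate 1, 0.14 on SW480 replicate 2 and -0.33 on SW480 replicate 3. On M5 replicates 1, 2 and 3 it was -0.27, 0.04 and 0.14. Over all genes the median deviation was 0.02, 0.01 and 0.05 on SW480 replicates 1 to 3. On M5 replicates 1 to 3 it was -0.005, 0.03 and 0.03 over all genes, so M5 replicate 2 was like all genes. For the listed genes, replicates of both lines thus lay on either side of the mean. The median range within SW480 was 0.69 for these genes and 0.71 for all genes tested, so their spread in size was like that of other genes.

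**Figure D2:**
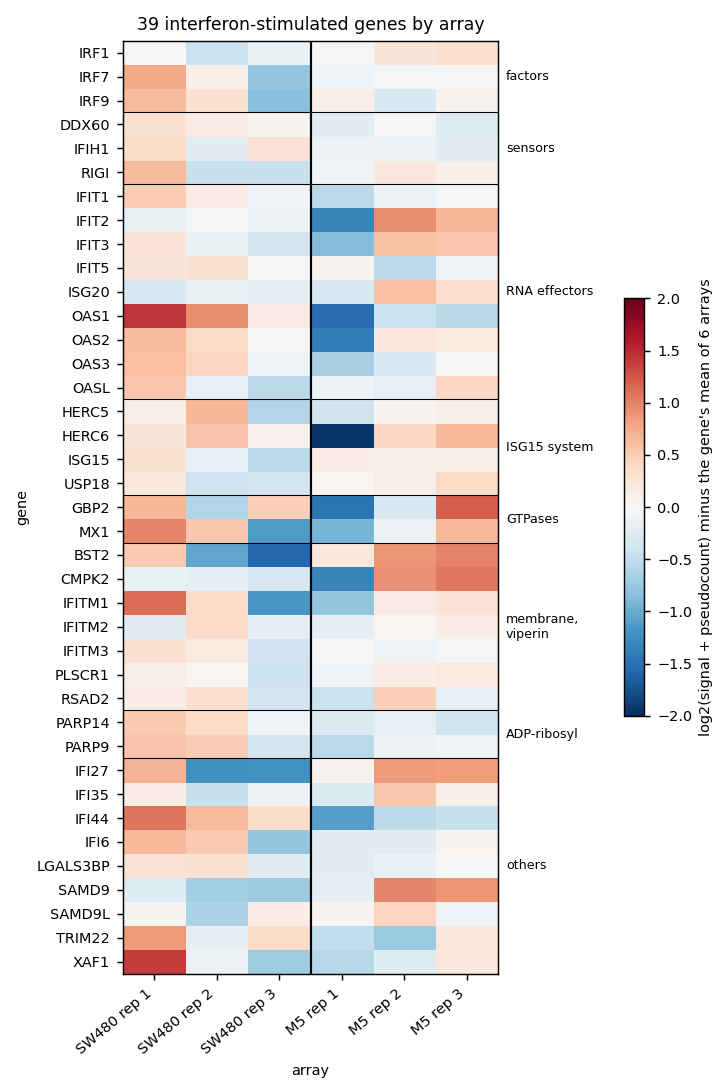
Deviation of each of the 39 tested genes (rows) from its own mean of 6 arrays, in log2(signal + 1.7), on the 3 SW480 and 3 M5 arrays (columns). SW480 replicate 1 is mostly above the mean, with 34 genes, and SW480 replicate 3 and M5 replicate 1 mostly below it, with 8 genes above on each.

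The difference between the lines ran in opposite directions on the dimmer and the brighter arrays. On the dimmer pair, 35 of 39 genes were lower in M5 (50.5% of all genes), 3 were higher and SAMD9L was equal, with a median difference of -0.66 against -0.01 for all genes. On the 4 brighter arrays, 27 of 39 were higher in M5 (51.2% of all genes), with a median of 0.30 against 0.02. The combination of lower on the dimmer pair and higher on the brighter arrays held for 24 of 39 genes, against 25.5% of all genes, and the reverse held only for IFITM2, against 23.8%. Without any scaling between arrays, 28 genes were lower on the dimmer pair while the median of all genes moved to 0.31, and 2 of 39 lay above that median. With arrays centred on their median, 32 were lower, the median of all genes was 0.15 and again 2 of 39 lay above it. The choice of SW480 array weighed heavily on the brighter arrays. M5 replicates 2 and 3 were higher than SW480 replicate 3 for 29 and 31 of 39 genes, against 49.4% and 49.2% of all genes. They were higher than SW480 replicate 2 for 17 and 21 of 39, against 52.2% and 51.7% of all genes. Split by the 18S control instead, the median difference was -0.53 within the arrays of high signal and 0.53 within those of low signal. The part of brightness, of the 18S signal or of the single arrays in this pattern was not tested, and they cannot be told apart with 1 dimmer array a line.

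**Figure D3:**
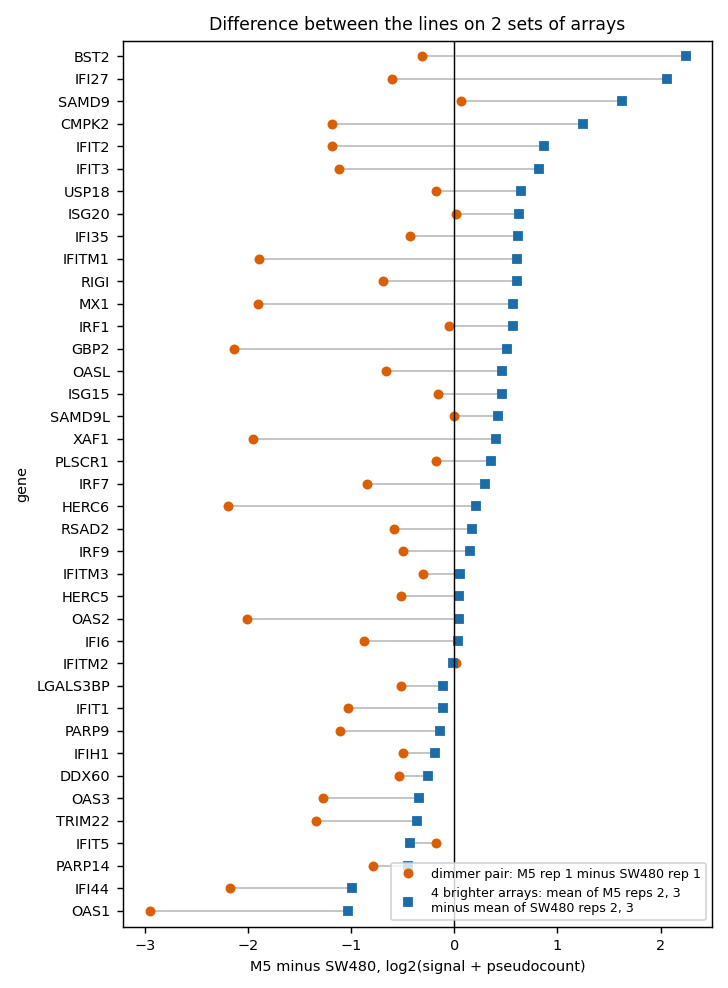
M5 minus SW480 in log2(signal + 1.7) for each of the 39 genes, on the dimmer pair (circles) and on the 4 brighter arrays (squares), joined by a line. Circles lie below 0 for 35 genes and squares above 0 for 27.

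Over all 6 arrays, no listed gene passed the test of M5 against SW480. By limma with Benjamini-Hochberg adjustment over 14243 genes, 0 of 39 were higher (0.0983% of all genes) and 0 were lower (0.0913%), with adjusted p from 0.155 to 0.999. At an unadjusted p under 0.05, BST2, IFI27 and SAMD9 were higher (5.42% of all genes) and IFI44, OAS1 and OAS3 lower (6.14%), which are shares of 7.69% each. For OAS3 this holds for its brightest probe set, and the mean of its 2 probe sets had the opposite sign. The median log2 fold change was -0.08 for the list and -0.01 for all genes. The groups did not overlap for SAMD9, higher in M5 (7.66% of all genes), nor for DDX60, IFI44, OAS1 and PARP14, lower in M5 (8.42%). On the 4 brighter arrays alone, 6 genes rose in M5, BST2, IFI27, SAMD9, CMPK2, IFIT2 and IFIT3, a share of 15.4% against 5.03% of all genes, and IFI44 fell (6.31% of all genes). This fit counts M5 replicates 2 and 3 as separate arrays, so its SEs and p-values, here and below, may be too small. With M5 replicates 2 and 3 averaged as well, BST2, IFI27 and SAMD9 still passed (0.567% of all genes) and 0 genes were lower by limma (0.78% of all genes), although IFI44 and OAS1 were lower at an unadjusted p under 0.05 (8.87% of all genes). Over all 6 arrays, 0 genes were called higher and 0 lower with these 2 M5 arrays averaged (0.00703% and 0.0211% of all genes by limma), and likewise with brightness as a block (0.274% and 0.176%). The interaction of line and brightness passed for the same 6 genes that rose on the brighter arrays (0.899% of all genes), each with a more positive difference there, and for 0 genes in the other direction (0.962%). At an unadjusted p under 0.05 it was positive for 18 of 39 (10.9% of all genes) and negative for 0 (10.6%) by limma. These interaction calls rest on 1 dimmer array a line and 2 residual degrees of freedom, and 0 of them remained when M5 replicates 2 and 3 were averaged, when either was left out, without scaling between arrays or without the intensity trend. The leukocyte marker LYZ (73.5, 1.22 and 23.5 in SW480, and 63.9, 147 and 161 in M5) and the keratin KRT19 also rose on the brighter arrays, with limma adjusted p of 0.0171 and 0.00493, and their part in the result was not tested.

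Among the transcription factors, none passed any of these tests. IRF9, the DNA-binding part of the complex, had signals of 102 to 283 in SW480 and 148 to 199.98 in M5. IRF7, which amplifies interferon production, ranged from 78.1 to 230 in SW480 and from 127 to 135 in M5. IRF1, an early target of interferon gamma, ranged from 53.0 to 72.5 and from 69.8 to 90.5. For all 3 the lines overlapped. The cytoplasmic RNA sensors RIGI and IFIH1, which detect viral RNA and signal through MAVS, also overlapped between the lines. DDX60, a helicase linked to RIGI signalling, was 164, 149 and 138 in SW480 and 113, 129 and 111 in M5. Its groups did not overlap, but its log2 fold change of -0.35 had an adjusted p of 0.587 by limma.

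The RNA-binding IFIT proteins recognise foreign RNA ends and hinder its translation, and of their genes IFIT2 and IFIT3 split by array. IFIT3 was 209, 160 and 134 in SW480 replicates 1 to 3 and 95.7, 263 and 257 in M5 replicates 1 to 3. IFIT2 was 59.1, 63.5 and 61.1 in SW480 and 25.1, 126 and 105 in M5. In both genes M5 replicate 1 was the lowest of all 6 arrays and M5 replicates 2 and 3 the highest. The IFIT3 difference was -1.12 on the dimmer pair and 0.82 on the brighter arrays, an interaction of 1.94 ± 0.31 (SE; limma adjusted p = 0.0305). For IFIT2 the interaction was 2.05 ± 0.40 (SE; limma adjusted p = 0.0462). Second probe sets of both genes moved in the same directions, with differences of -1.69 and 0.92 for IFIT3 and -1.11 and 0.56 for IFIT2. IFIT1 did not rise on the brighter arrays: its signals were 1642, 1290 and 1111 in SW480 and 801, 1064 and 1151 in M5. Nor did IFIT5, at 401, 418 and 326 in SW480 and 355, 234 and 322 in M5. Its differences were -0.18 on the dimmer pair and -0.42 on the brighter arrays.

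The oligoadenylate synthetases, which make the second messenger that activates RNase L, did not pass the 6-array test. OAS1 was 195, 137 and 80.1 in SW480 and 23.7, 52.7 and 48.2 in M5, so that every M5 array lay below every SW480 array. The means were 137 ± 57.4 (SD, n = 3) and 37.1 ± 18.9 (SD, n = 2), and the log2 fold change of -1.67 ± 0.39 (SE) had a limma adjusted p of 0.184. The other kept OAS1 probe set had a log2 fold change of -0.73, with 28.3 on M5 replicate 3 and 36.4 on SW480 replicate 3. OAS3 was 330, 293 and 207 in SW480 and 136, 174 and 215 in M5, a log2 fold change of -0.65 (limma adjusted p = 0.384). Its second probe set had a log2 fold change of 0.89 over 6 arrays and a difference of 1.95 on the brighter arrays, and the mean of both probe sets gave 0.12 over 6 arrays, so no direction is given for OAS3. OAS2 was dim, with 19.1, 16.0 and 11.5 in SW480 and 3.45, 14.2 and 13.9 in M5. The exonuclease ISG20 was 27.0, 30.6 and 29.9 in SW480 and 27.2, 52.4 and 43.4 in M5, a log2 fold change of 0.42 (limma adjusted p = 0.685).

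The ISG15 system attaches a ubiquitin-like protein to other proteins. ISG15 itself was 5575, 4035 and 3122 in SW480 and 5000.1, 4862 and 4898 in M5. The M5 arrays were close together and lay inside the range of SW480, and on the brighter arrays the difference of 0.46 had a limma adjusted p of 0.0617. HERC6, an E3 ligase of the HERC family, was 51.6, 64.9 and 45.9 in SW480 and 9.97, 58.4 and 68.6 in M5, so that 1 array, M5 replicate 1, stood far below the rest. Its interaction of 2.40 had a limma adjusted p of 0.0523. HERC5, the main ISG15 ligase, and USP18, the protease that removes ISG15, overlapped between the lines. Among the GTPases, which block viral entry or replication at membranes or in capsids, MX1 and GBP2 were dim: GBP2 was 12.8, 4.38 and 11.0 in SW480 and 1.60, 5.73 and 19.4 in M5.

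Of the membrane proteins and the genes grouped with them, BST2 and CMPK2 rose on the brighter arrays. BST2, tetherin, which holds budding virus at the cell surface, was 128, 42.2 and 28.6 in SW480 and 103, 164 and 178 in M5. SW480 replicate 1 lay within the range of M5, while SW480 replicates 2 and 3 lay below all 3 M5 arrays. The means were 66.2 ± 53.8 (SD, n = 3) and 137 ± 48.4 (SD, n = 2), and over 6 arrays the log2 fold change of 1.39 ± 0.47 (SE) had a limma adjusted p of 0.323. On the 4 brighter arrays it was 2.29 ± 0.26 (SE; limma adjusted p = 0.00139), with an interaction of 2.55 ± 0.42 (SE; adjusted p = 0.032). Both fits counted M5 replicates 2 and 3 separately. CMPK2, a mitochondrial nucleotide kinase, was 54.1, 51.6 and 46.8 in SW480 and 22.9, 114 and 125 in M5. The SW480 arrays were close together and M5 lay on both sides of them, with an interaction of 2.43 ± 0.40 (SE; limma adjusted p = 0.0313). The IFITM proteins hinder viral fusion in endosomes. Their genes did not pass the 6-array test, the brighter-array test or the interaction test after adjustment. IFITM1 was 1165, 697 and 237 in SW480 and 312, 597 and 650 in M5. Its differences were -1.90 on the dimmer pair and 0.61 on the brighter arrays. The interaction of 2.51 passed only at an unadjusted p under 0.05 by limma. IFITM2 was 1718, 2616 and 1768 in SW480 and 1740, 2059 and 2220 in M5. IFITM3 was 4280, 3966 and 2607 in SW480 and 3460, 3279 and 3397 in M5. SW480 spread more widely than M5 in each of the 3 IFITM genes. PLSCR1, a scramblase of the plasma membrane, and RSAD2, viperin, overlapped between the lines.

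The ADP-ribosyltransferases PARP9 and PARP14 had differences of -1.11 and -0.79 on the dimmer pair and -0.14 and -0.44 on the brighter arrays. PARP14 was 61.3, 56.3 and 39.98 in SW480 and 34.7, 37.5 and 31.7 in M5, with no overlap and a limma adjusted p of 0.526.

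Of the remaining genes, IFI27, a small mitochondrial protein, was 4035, 1077 and 1093 in SW480 and 2662, 4565 and 4488 in M5. SW480 replicate 1 again resembled M5, and SW480 replicates 2 and 3 lay below all M5 arrays. Over 6 arrays the log2 fold change was 1.17 ± 0.43 (SE; limma adjusted p = 0.350). On the brighter arrays, with M5 replicates 2 and 3 counted separately, it was 2.04 ± 0.11 (SE; limma adjusted p = 4.995e-05). Its interaction of 2.66 ± 0.19 (SE) was the largest of those called among the listed genes (limma adjusted p = 0.00345). SAMD9, a cytoplasmic antiviral factor, was 322, 238 and 232 in SW480 and 336, 753 and 706 in M5. No M5 array was below any SW480 array, although M5 replicate 1 was only 0.06 above SW480 replicate 1. Its means were 264 ± 50.3 (SD, n = 3) and 533 ± 278 (SD, n = 2), and the log2 fold change of 1.11 ± 0.30 (SE) had a limma adjusted p of 0.244. On the brighter arrays, again with M5 replicates 2 and 3 counted separately, it was 1.64 ± 0.15 (SE; limma adjusted p = 0.000735). A second probe set gave a difference of 1.60 there.

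IFI44, a cytoplasmic protein of the interferon response, went in the other direction. It was 137, 102 and 84.2 in SW480 and 29.1, 44.5 and 46.9 in M5, and every M5 array was below every SW480 array. The means were 108 ± 27.0 (SD, n = 3) and 37.4 ± 11.7 (SD, n = 2). The log2 fold change was -1.39 ± 0.31 (SE; limma adjusted p = 0.155) over 6 arrays and -1.01 ± 0.24 (SE; adjusted p = 0.0293) on the brighter arrays, where averaging M5 replicates 2 and 3 gave an adjusted p of 0.234. A second, dimmer IFI44 probe set overlapped between the lines, at 7.92, 28.2 and 5.83 in SW480 and 4.75, 15.4 and 8.33 in M5, with a log2 fold change of -0.32. The mean of both probe sets gave -0.85 over 6 arrays (limma adjusted p = 0.479). Its paralog IFI44L had at most 15.1 in SW480 and 2.62 in M5 and was not tested. IFI6, a mitochondrial and endoplasmic reticulum protein, was 3667, 3397 and 1378 in SW480 and 2000, 2014 and 2439 in M5, within the SW480 range. TRIM22, an antiviral ubiquitin ligase, was 19.3, 8.53 and 13.4 in SW480 and 6.6, 5.25 and 11.7 in M5 and overlapped between the lines.

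**Figure D4:**
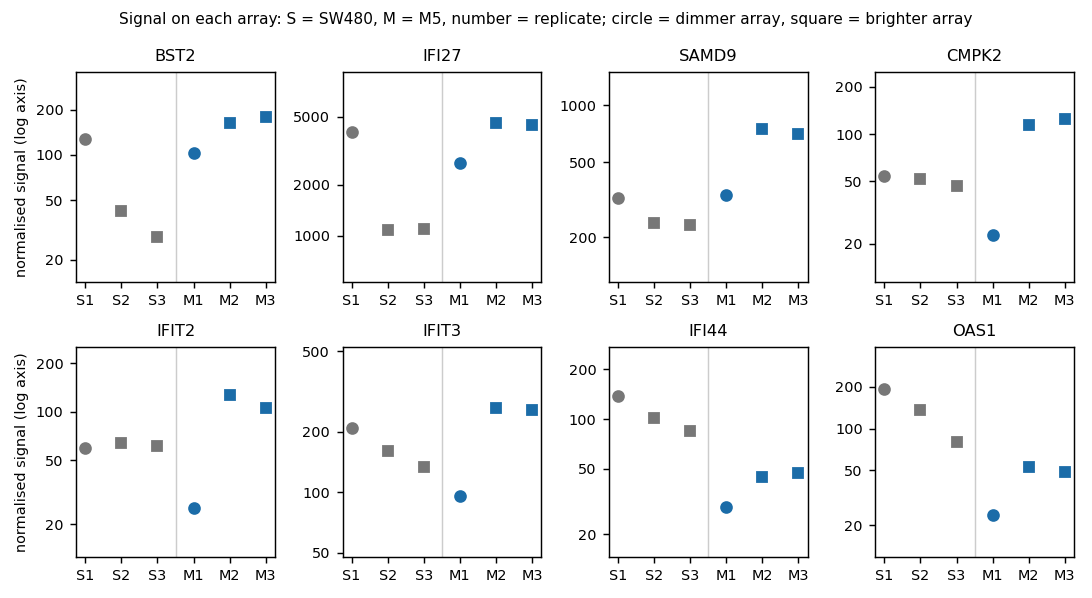
Quantile normalised signal (log axis) of 8 listed genes on each array, with circles for the dimmer pair and squares for the brighter arrays. BST2 and IFI27 are high on SW480 replicate 1 and on M5 replicates 2 and 3, and IFI44 and OAS1, by their brightest probe sets, are lower on every M5 array than on any SW480 array.

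Other genes of the pathway were taken from lists of ligands, receptors, signalling proteins, sensing proteins and further interferon-induced genes. No gene of these lists passed the 6-array test in either direction. Of the ligands, 3 of 10 were tested. All 6 receptors were tested, with a median log2 fold change of -0.18, and IFNAR2, a chain of the type I receptor, was 76.0, 85.3 and 86.3 in SW480 and 35.3, 86.6 and 102 in M5. Its partner IFNAR1 was 9.03, 39 and 39.2 in SW480 and 34.1, 9.13 and 19.6 in M5. For the receptor-bound kinases JAK1 and TYK2 the log2 fold changes were -0.11 and -0.31. For IRF3 and MAVS, which carry the signal of RNA sensing, they were -0.32 and -0.37. TANK, an adaptor of the kinases that act on IRF3, fell in M5 on the 4 brighter arrays, by 1.60 on the log2 scale (limma adjusted p = 0.000708). Its signals were 367, 841 and 880.5 in SW480 and 349, 290 and 279 in M5, so SW480 replicate 1 lay near M5. Over 6 arrays its log2 fold change was -1.09 (limma adjusted p = 0.252). Of the 41 further interferon-induced genes 32 were tested, with a median log2 fold change of -0.25, a median difference of -0.68 on the dimmer pair and -0.02 on the brighter arrays. SP100, a nuclear body protein, rose on the brighter arrays by 0.91 (limma adjusted p = 0.0108). It was the only 1 of 30 tested there that was called higher, against 5.03% of all genes. The interaction of line and brightness was also called in these lists, for PARP10 (2.82) and CD274 (3.22) and, in the other direction, for TANK (-1.52). Over all genes it was called for 0.899% and 0.962%, and it rests on 1 dimmer array a line. UBE2L6, the conjugating enzyme of ISG15, was 151, 142 and 74.3 in SW480 and 34.9, 67.4 and 62.8 in M5, with a log2 fold change of -1.12 and a limma adjusted p of 0.313.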

How the data were processed

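The authors deposited 1 intensity per probe set and array, on a linear scale, and GCOS 1.4 is named per the submitters' processing notes. How it scaled the arrays, and the build, is not given in the sources used here. There are no detection calls, so background is unknown. Of 54613 probe sets that are not controls, 41091 had 1 gene symbol, 1801 several and 11721 none, per the platform annotation, and only those with 1 were used. Trimmed means differed by over 5%, so quantile normalisation was applied. A pseudocount of 1.7, the 20th percentile of the deposited intensities, was added before log2, which understates changes of low signals. The dimmest 40% of probe sets were dropped, and each gene took its brightest remaining probe set. Lines were compared with limma 3.58.1 in R 4.3.3 (lmFit and eBayes with an intensity trend, two-sided, Benjamini-Hochberg over all genes, threshold 0.05), on all 6 arrays, on the 4 brighter arrays and for the interaction of line and brightness. The script was tested on simulated data.

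In means and SDs, M5 replicates 2 and 3 entered as 1 sample because of their closeness on bright probe sets and spike-in controls, measured after quantile normalisation. The fits keep all arrays unless stated. Values on every array were given for genes past the threshold without the dimmer pair, the 5 with the largest log2 fold change in each direction, the 5 brightest, the 5 with the widest range within a line, and OAS1, IFI44 and SAMD9. A few more were named after their values were seen. The members, the gene lists and the rule were chosen with earlier results of these data known. Same-numbered replicates showed little pairing (correlations of deviations of 0.11, 0.02 and 0.07), but the dimmer pair had the highest value of any pair across lines. Over the brightest probe sets its 2 arrays correlated at 0.954. SW480 replicate 1 correlated at 0.91 with each other array of its own line. Alternatives changed the scaling, pseudocount, filter, variance model, test, probe set, blocks and arrays. The number of arrays limits the precision. Figures were drawn with matplotlib 3.10.9.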

Additional observations from a re-analysis of the deposited data

Results flagged for a closer look

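For 6 listed genes limma's interaction test called the difference between M5 and SW480 unlike on the dimmer pair and the 4 brighter arrays. Over all genes, 0.899% were called in this direction and 0.962% in the other. The calls rest on 1 dimmer array a line, and none remained with M5 replicates 2 and 3 averaged. The interaction, in log2 units as brighter minus dimmer, was 2.66 for IFI27, 2.55 for BST2, 2.43 for CMPK2, 2.05 for IFIT2, 1.94 for IFIT3 and 1.57 for SAMD9. IFI27, BST2, CMPK2, IFIT2 and IFIT3 were lower in M5 on the dimmer pair and higher on the brighter arrays, and SAMD9 was nearly level on the dimmer pair. The signals of the keratin KRT19 were 2895, 1433 and 958 in SW480 and 2643 to 2755 in M5. Its part in the result was not tested.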

How the results depend on the processing

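Leaving out the dimmer pair raised the count of listed genes called higher in M5 from 0 to 6, and that of all genes from 14 to 713. Those called lower rose from 0 to 1 in the list and from 13 to 893 over all genes. The median log2 fold change of the listed genes moved from -0.08 to 0.31. With M5 replicates 2 and 3 averaged as well, 3 were higher. Leaving out 1 array at a time gave 0 to 2 listed genes higher. Without SW480 replicate 1 there were 2, BST2 and IFI27, with 100 called higher over all genes. Without M5 replicate 1 there was 1, SAMD9, with 102 over all genes. The 6 interaction calls became 0 without scaling between arrays, 1 with arrays centred on the median (IFI27, limma adjusted p = 0.0269), 0 without the intensity trend and 0 with M5 replicates 2 and 3 averaged (IFI27, limma adjusted p = 0.0535). Leaving out 1 brighter array gave 0 to 21 calls: 0 without M5 replicate 2 or without M5 replicate 3, 12 without SW480 replicate 3 and 21 without SW480 replicate 2, where the spread comes from M5 replicates 2 and 3 alone. The cause of these changes was not tested, and the counts over all genes under these interaction settings are not given here. The replicate block left 0 listed genes called higher and 0 lower, as did blocks by the 18S signal or by brightness. Over all genes, 14 were called higher and 12 lower with the replicate block. With the 18S block these counts were 10 and 8, and with the brightness block 39 and 25. Of 415 values of 19 named genes under 22 settings, 365 kept their direction and side of the threshold, 13 newly passed it and 37 changed sign with neither value past it. For the interaction, averaging M5 replicates 2 and 3 and leaving out single arrays were chosen after seeing the data, as was the adjustment over all kept probe sets for every result.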
